A study of Homo sapiens with 24 samples.

Results

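An siRNA directed against TAPIR-2 was set against an siRNA directed against TAPIR-1 in LNCaP cells 48 h after delivery. LNCaP is an androgen-responsive prostate cancer line derived from a lymph node metastasis. The comparison used 7 of the 24 arrays of the series, namely replicates 1, 3 and 4 labelled si-A2 and the 4 replicates labelled si-A1. The arrays were chosen by their labels and the time after transfection, and si-A2 replicate 2 was left out because it was a dim array. All cells were grown in RPMI-1640 with 10% serum and electroporated with a Stealth siRNA duplex, so that the si-A1, si-A2 and scramble (si-SCRL) arrays share the medium, the delivery and the duplex chemistry. The duplex si-A1 was directed against TAPIR-1, the duplex si-A2 against TAPIR-2, and si-SCRL was a negative control of medium GC content. The arrays covered 1 siRNA per transcript, so effects of a target and of a particular duplex cannot be told apart on them. The study's methods call the replicates biological, and the p-values measure the spread between these arrays.

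TAPIR-1 and TAPIR-2 are long non-coding RNAs from neighbouring genes on chromosome 2, next to PXDN. The labels place TAPIR-1 at chr2:1550437-1623885 on GRCh37.p13 and TAPIR-2 at chr2:1620510-1625419 on GRCh38.p12. The question behind the comparison was where the transcriptomes of cells treated against the neighbouring transcripts part. Proliferating cells copy their genome in S phase with helicase and polymerase proteins, package the new DNA with histones made in that phase, and separate the chromosomes in mitosis. E2F factors, held back by retinoblastoma family proteins, switch on many of the S phase genes. In prostate cells androgens drive a further set of luminal genes.

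Expression was read on one-colour Agilent arrays, and the values below are quantile-normalized log2 intensities. A difference is the si-A2 minus si-A1 contrast of a limma fit over 11 arrays of 48 h with the slide as a term, so it can depart slightly from the difference of the plain means. The 4 si-SCRL arrays entered that fit to estimate the spread. A gene was called when its adjusted p was below 0.01 and its difference at least 0.5 on the log2 scale. The arrays had a median processed intensity of 20.4 to 32.2 and 60.3 to 66.5% of spots well above background, with no saturated spot. On the array left out, the bright corner spots had a median of 4772, against 361862 to 473700 on the others. Its correlation with the other arrays was 0.369 to 0.484, whereas the others correlated with each other at 0.962 or above. Of the luminal prostate markers, 8 of 8 were above the background threshold, 4 were tested and none was called, while without the filter on variation KLK2 was called higher in si-A2. Their median difference was 0.21, and their median level was 10.79 to 11.45 on the si-A1 arrays, 11.53 to 12.11 on the si-A2 arrays and 11.43 to 12.37 in si-SCRL, so that si-A1 and si-A2 did not overlap. The part of this shift in the results below was not tested. Above it were also 4 of 5 basal, 3 of 6 fibroblast, 4 of 6 leukocyte and 4 of 4 endothelial markers, none of them called, with median differences between -0.16 and 0.15. At an unadjusted limma p below 0.05 were 2 luminal markers and 1 endothelial marker.

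The targeted transcripts were examined first. TAPIR-2 (ENST00000366424) was matched by 2 probes and TAPIR-1 (ENST00000438247) by 0 probes, so the arrays give no reading of TAPIR-1 here. The TAPIR-2 probe above the threshold on all 11 arrays read 5.46, 5.55, 4.36 and 3.93 in si-A1 and 5.62, 3.83 and 4.60 in si-A2. In si-SCRL it read 4.70, 5.41, 4.02 and 4.44. The 3 groups overlapped completely, with means of 4.82 ± 0.81 (SD, n = 4), 4.68 ± 0.90 (SD, n = 3) and 4.64 ± 0.58 (SD, n = 4). The difference was 0.05 ± 0.26 (SE; limma adjusted p = 0.945), and an exact two-sided permutation test over the 7 arrays gave p = 0.971, where 4 arrays against 3 cannot go below 0.0571. The sign of this difference turned with the processing, as the closing section gives. The other TAPIR-2 probe was not well above background in si-A1 or si-A2. By qPCR, another assay, the study reported knockdown of both transcripts in LNCaP at a later time. The array probes show no lower TAPIR-2 in the arrays labelled si-A2, and the position of the probes relative to the siRNA target is not used here. Below, si-A1 and si-A2 therefore stand for the arrays so labelled. The neighbouring gene PXDN, which encodes a peroxidase of the extracellular matrix, was not called (0.05 ± 0.45 SE).

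Between si-A2 and si-A1, 285 of 17334 genes were called, which is 1.64% of those tested. Of these, 211 (1.22% of genes tested) were higher in si-A2 and 74 (0.427%) were lower, with absolute differences from 0.83 to 3.57. The si-A2 and si-A1 arrays did not overlap in 284 of the 285, and in 15.5% of all genes tested. All 285 had the same sign within slide 1 and within slide 2, as did 63.7% of the genes tested. The replicate numbers were taken as pairs, and with the replicate number as a block 29 genes were called (0.167%), 24 higher and 5 lower. Of the 61 called genes named below, 18 kept their call with that block. They were DTL, CLSPN, EXO1, CENPU and RAD51AP1 of the S phase list, the histone genes H2AC11 and H1-5, BRCA1, HSPA1B, SKA1, GSKIP, ZNF367, POLQ, PCAT1, FAM107A, TMSB15A, LRRN1 and NPC2. The other 43 named genes, all those of the G2/M, androgen, polyamine and respiratory chain lists among them, had the same sign with the block and were not called. Without si-A2 replicate 1 the count was 1 and without si-A2 replicate 4 it was 0, with 2808 and 3697 genes at an unadjusted limma p below 0.05. The median difference over the genes tested was -0.07. In the same fit, si-A1 against si-SCRL gave 1536 called genes (8.86%), of which 1098 were lower in si-A1 (6.33%) and 438 higher (2.53%). The fit gave 41 (0.237%) for si-A2 against si-SCRL, of which 33 were lower in si-A2. These comparisons share control arrays with each other, and the si-A1 or si-A2 arrays with the main contrast. Their values are therefore only set side by side below. Among the 211 genes higher in si-A2, the si-A2 mean lay between the si-A1 and si-SCRL means for 132 and above both for 79. Among the 74 lower genes it lay below both for 63 and between them for 11. Over all 17334 genes tested it lay between for 7341, above both for 4548 and below both for 5445. Through their selection, higher genes cannot lie below both and lower genes cannot lie above both.

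ANLN, the actin-binding scaffold of the cleavage furrow (chr7:36389862-36453791, GRCh38.p14), had the largest fitted difference of the called genes. Its values were 2.16, 3.05, 1.6 and 3.81 in si-A1 and 6.61, 5.64 and 6.41 in si-A2, against 7.5 to 8.12 in si-SCRL. The si-A2 arrays were all above the si-A1 arrays and below the si-SCRL arrays. The difference was 3.57 ± 0.50 (SE; limma adjusted p = 0.0056), but 1 of the 4 si-A1 spots was well above background, so its size and its rank are uncertain. E2F2, an activating E2F factor, read 1.57, 3.01, 1.84 and 1.63 in si-A1 and 4.85, 4.15 and 5.19 in si-A2, again without overlap. None of its si-A1 spots was well above background, and si-A2 was at least 2.88-fold higher (adjusted p = 0.0051). Bounds of the same kind were found for the kinetochore gene SKA1 (at least 2.40-fold), the mitotic motor KIF15 (2.41-fold), the kinase-binding protein gene GSKIP (2.40-fold) and the repair gene BRCA1 (1.99-fold). ZNF367, a zinc finger factor, was measured on all arrays, at 4.60 ± 0.58 (SD, n = 4) in si-A1 and 7.49 ± 0.37 (SD, n = 3) in si-A2.

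**Figure D1:**
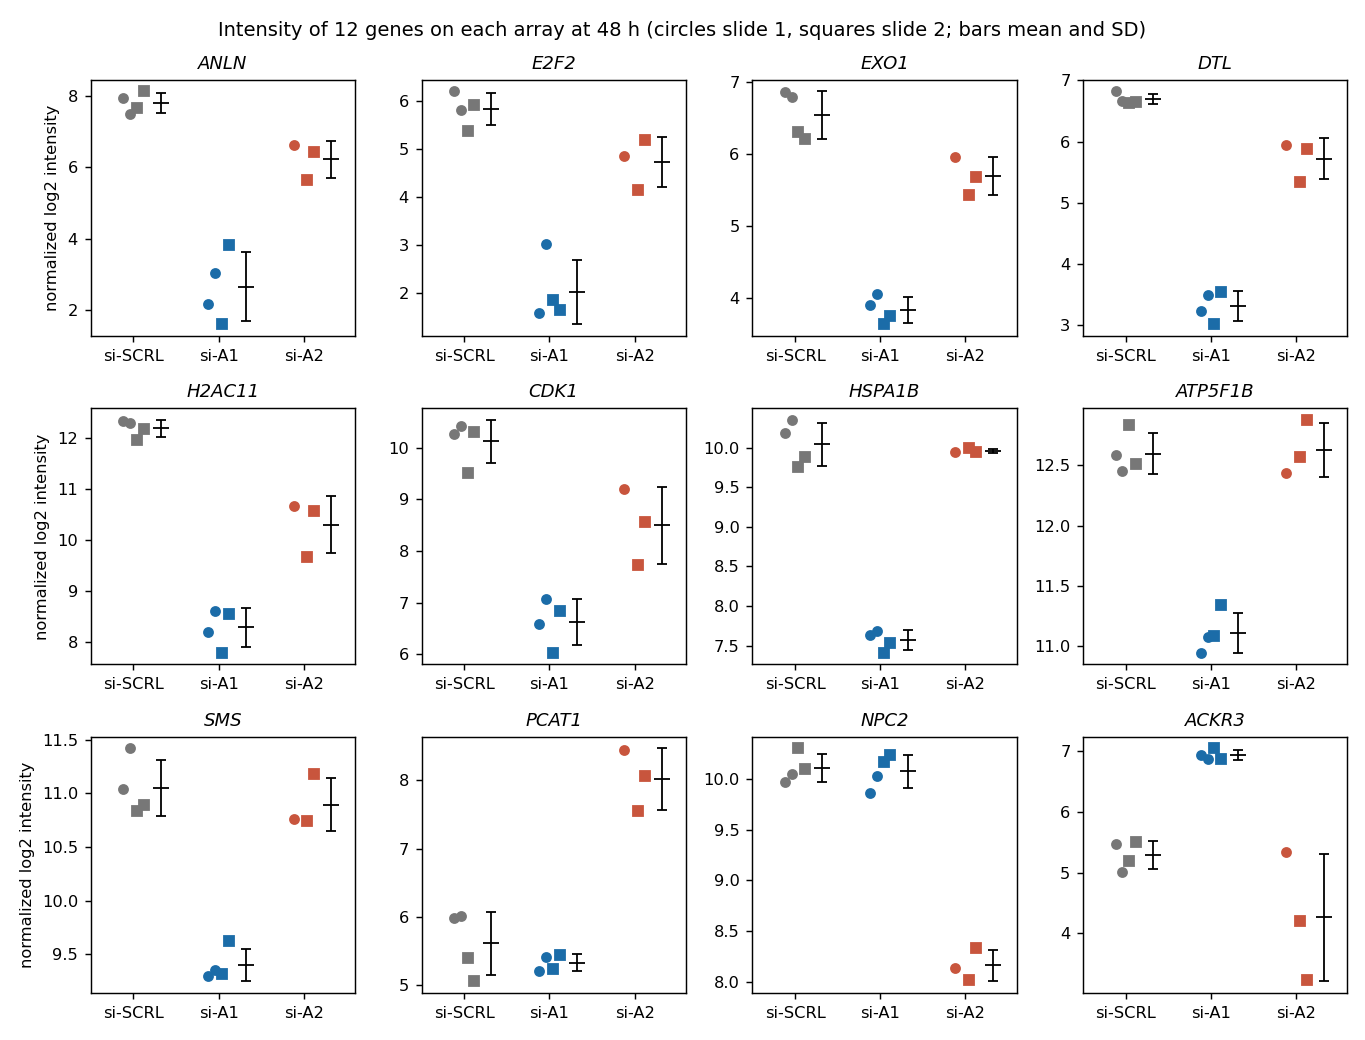
Quantile-normalized log2 intensity of 12 genes on the 11 arrays of 48 h used, grouped as si-SCRL, si-A1 and si-A2, with circles for slide 1, squares for slide 2 and bars for the mean and SD. For ANLN, E2F2, EXO1, DTL, H2AC11 and CDK1 the si-A2 arrays lie between si-A1 and si-SCRL. For HSPA1B, ATP5F1B and SMS they lie near si-SCRL, and for PCAT1 and NPC2 they stand apart from both.

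Of the 43 S phase genes listed, 42 were above the background threshold and 38 were tested. In si-A2, 13 of the 38 were called higher and 0 lower, and at an unadjusted limma p below 0.05 these counts were 32 and 0, beside 1824 and 1941 of all 17334 genes. The median difference of the 42 was 0.89, where that of all 37444 genes above the threshold was -0.04, and 40 of the 42 had a value above 0. The called members included the replicative helicase subunits MCM4, MCM5 and GINS2, the clamp loader RFC2, the nucleotide reductase RRM2, cyclin gene CCNE2, the ubiquitin ligase receptor DTL, the checkpoint mediator CLSPN, the recombination and repair genes RAD51AP1, BLM and EXO1, and the centromere gene CENPU. In si-A1, 1 of 4 spots was well above background for BLM, 2 for DTL and 3 for CENPU. The median level of the list was 5.45, 5.65, 5.33 and 5.57 on the si-A1 arrays and 6.82, 6.2 and 6.66 on the si-A2 arrays, against 7.34 to 7.72 in si-SCRL. The 3 groups did not overlap, and si-A2 took the middle position. Against si-SCRL the list median was -1.51 for si-A1 and -0.74 for si-A2.

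EXO1, an exonuclease of mismatch repair (chr1:241847986-241889939), gave closely grouped values. It read 3.91, 4.06, 3.64 and 3.76 in si-A1 and 5.96, 5.44 and 5.69 in si-A2. All si-A2 arrays exceeded all si-A1 arrays by more than the spread of either group, with a difference of 1.92 ± 0.15 (SE; adjusted p = 0.0016). DTL (chr1:212035748-212105013) read 3.22, 3.49, 3.01 and 3.54 in si-A1 and 5.95, 5.34 and 5.87 in si-A2, a difference of 2.43 ± 0.20 (SE; adjusted p = 0.0016). For MCM5, one of the brighter members, the values were 7.56, 7.92, 7.69 and 7.94 against 9.19, 8.93 and 9.27 (1.36 ± 0.17 SE; adjusted p = 0.0038). On the si-A2 arrays of EXO1, DTL and MCM5, replicate 3 was the lowest.

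Of the 54 G2/M genes listed, 52 were above the threshold and 49 were tested, of which 8 were called higher and 0 lower in si-A2, and 36 and 1 passed an unadjusted limma p of 0.05. The median difference of the 52 was 0.86, with 50 above 0. Beside ANLN, the called members were the kinase CDK1, its binding partner CKS2, the topoisomerase TOP2A, the condensin subunits SMC4 and NCAPD2, the kinetochore gene NUF2 and the spindle checkpoint kinase TTK. No si-A1 spot of CKS2 or TTK was well above background, and si-A2 was at least 1.65-fold and 2.16-fold higher. CDK1 read 6.59, 7.07, 6.03 and 6.84 in si-A1 and 9.20, 7.72 and 8.56 in si-A2 (1.96 ± 0.32 SE; adjusted p = 0.0095), while a second, dimmer probe gave 0.34. TOP2A read 4.82, 5.12, 4.41 and 4.70 against 7.06, 5.52 and 6.29 (1.62 ± 0.25 SE; adjusted p = 0.0082). Both genes were separated between the groups, but si-A2 replicate 3 came within 1 log2 unit of the highest si-A1 array in each. The list median was 5.40, 5.81, 5.61 and 5.75 on the si-A1 arrays and 7.09, 6.11 and 6.57 on the si-A2 arrays, with si-SCRL at 7.72 to 8.18. Replicate 3 of si-A2 thus stood nearest to si-A1.

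Several mitotic genes had values in the same direction without being called. BIRC5, which encodes survivin, differed by 1.81 ± 0.32 (SE; adjusted p = 0.013), the cyclin gene CCNB2 by 1.56 ± 0.29 (SE; adjusted p = 0.016) and the spindle kinase AURKA by 1.14 ± 0.21 (SE; adjusted p = 0.014). For the mitotic transcription factors FOXM1 and MYBL2 the differences were 0.91 (adjusted p = 0.071) and 0.31 (adjusted p = 0.29). The proliferation marker MKI67 stood at 0.52, the cytokinesis kinesin KIF23 at 0.42 and the phosphatase CDC25C at 0.60, with adjusted p-values of 0.236, 0.211 and 0.426. These are the brightest probes, and the dimmer ones gave larger values, 1.56 and 1.35 for MKI67 and 1.18 for KIF23. CCNB1, the mitotic cyclin, was at -0.74 (adjusted p = 0.409), and its si-A1 and si-A2 arrays overlapped. Its second probe gave 1.08, so CCNB1 has no settled direction. These genes belong with E2F1 and others to a list of 21 genes followed by the study or singled out earlier in these data. Of that list 17 were tested and 5 were called higher, namely H1-5, BRCA1, CHEK1, CLSPN and TMSB15A, which is no independent evidence of a direction.

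**Figure D2:**
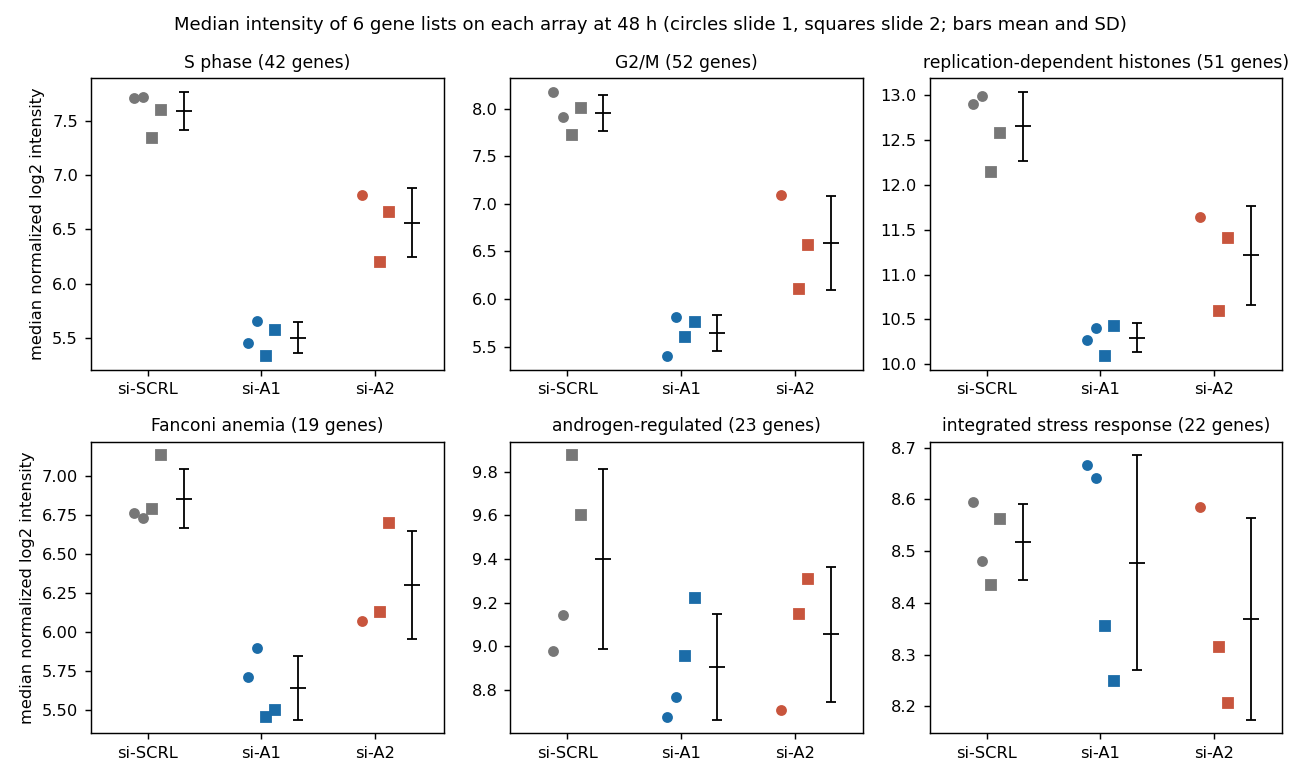
Median quantile-normalized log2 intensity of 6 gene lists on each of the 11 arrays of 48 h, with circles for slide 1, squares for slide 2 and bars for the mean and SD. For the S phase, G2/M and histone lists the si-A2 arrays lie between si-A1 and si-SCRL, while in the integrated stress response list the 3 groups overlap and all 11 arrays lie between 8.21 and 8.67.

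All 51 listed histone genes of the chromosome 6 clusters were above the threshold, 48 were tested and 3 were called higher in si-A2, with 45 higher and 0 lower at an unadjusted limma p below 0.05. The median difference of the 51 was 0.98, with 49 above 0, and many of these genes are near-identical copies whose probes may read each other. H2AC11, which encodes an H2A histone, read 8.19, 8.61, 7.79 and 8.56 in si-A1 and 10.67, 9.66 and 10.57 in si-A2 (2.07 ± 0.27 SE; adjusted p = 0.0046). The linker histone gene H1-5 differed by 2.31 ± 0.33 (SE) and the H3 gene H3C7 by 1.74 ± 0.28 (SE). In each of the 3 genes the si-A2 arrays were above every si-A1 array and below every si-SCRL array. The list median was 10.09 to 10.43 in si-A1, 10.59 to 11.64 in si-A2 and 12.14 to 13 in si-SCRL.

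Of the 19 Fanconi anemia genes above the threshold, which repair DNA crosslinks, 13 were tested and BRCA1, FANCI and FANCB were called higher in si-A2. The median difference of the 19 was 0.30, with 10 above 0. BRCA1 (chr17:43044295-43170327) read 1.25, 1.6, 1.43 and 2.14 in si-A1 and 4.41, 3.67 and 4.5 in si-A2, against a si-SCRL mean of 5.31 ± 0.15 (SD, n = 4). FANCI differed by 1.40 and FANCB by 1.29. Outside the list, the polymerase gene POLQ of end joining differed by 1.63 ± 0.15 (SE; adjusted p = 0.0022) and the checkpoint kinase gene CHEK1 by 1.37 ± 0.20 (SE; adjusted p = 0.0063). In the G1 to S list, 13 of 20 genes were tested, and CCNE2, E2F2 and the kinase CDK2 (1.38 ± 0.19 SE) were called. CCNE1, which encodes the other cyclin E, gave 0.00 ± 0.10 (SE), a value whose sign changed with the processing, and E2F1 gave 1.35 (adjusted p = 0.022). Of the DREAM repressor subunits 6 of 11 were tested and the E2F partner TFDP1 was called (1.02 ± 0.17 SE; 0.15 by its second probe), while the median of the 11 was -0.26.

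The bases upstream of 4 called genes are shown because promoters of cell cycle genes are known to carry E2F sites, CHR elements and CCAAT boxes, and those of heat shock genes heat shock elements. Each is the 250 bases before the first RefSeq start of the gene on GRCh38.p14, 5′ to 3′ on the strand of the gene, with letters that match a searched motif on either strand in capitals. The motifs were TTTCCCGC and TTTGGCGC for E2F, TTTGAA for the CHR, CCAAT, and GAANNTTC for the heat shock element.
DTL, chr1:212035498-212035747, plus strand: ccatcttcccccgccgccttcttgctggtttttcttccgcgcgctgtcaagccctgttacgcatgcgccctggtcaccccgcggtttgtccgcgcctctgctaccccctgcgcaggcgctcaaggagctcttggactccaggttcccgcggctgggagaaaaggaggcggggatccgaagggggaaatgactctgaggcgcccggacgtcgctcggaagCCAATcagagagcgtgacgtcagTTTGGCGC
TOP2A, chr17:40417897-40418146, minus strand: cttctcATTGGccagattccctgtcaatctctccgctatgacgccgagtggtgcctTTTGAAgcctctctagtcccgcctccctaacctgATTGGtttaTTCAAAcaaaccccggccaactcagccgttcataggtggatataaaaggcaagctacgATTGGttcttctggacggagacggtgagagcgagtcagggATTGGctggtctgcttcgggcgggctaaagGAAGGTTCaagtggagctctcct
H2AC11, chr6:27132793-27133042, plus strand: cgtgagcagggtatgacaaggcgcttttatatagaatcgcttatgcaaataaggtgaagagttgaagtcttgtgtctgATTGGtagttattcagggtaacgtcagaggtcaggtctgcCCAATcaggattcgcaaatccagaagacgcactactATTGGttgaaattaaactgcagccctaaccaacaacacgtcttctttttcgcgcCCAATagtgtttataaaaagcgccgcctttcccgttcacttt
HSPA1B, chr6:31827488-31827737, plus strand: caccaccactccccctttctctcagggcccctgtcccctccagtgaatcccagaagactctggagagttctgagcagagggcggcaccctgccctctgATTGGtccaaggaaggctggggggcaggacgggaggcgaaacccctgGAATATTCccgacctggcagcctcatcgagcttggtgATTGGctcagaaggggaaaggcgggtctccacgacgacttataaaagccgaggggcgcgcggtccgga

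The DTL window held 1 E2F site and 1 CCAAT box, that of TOP2A 2 CHR elements, 4 CCAAT boxes and 1 heat shock element, that of H2AC11 4 CCAAT boxes, and that of HSPA1B 2 CCAAT boxes and 1 heat shock element. Of the 27 called genes that belong to the lists for S phase, G2/M, histones or crosslink repair, 21 had such a window. A CCAAT box was in 14 of them (66.7%) and a CHR in 7 (33.3%), where 33.0% and 13.6% of all 27305 windows held these letters. An E2F site of either form was in 2 (9.52%), against 1.96% of all windows. Among the windows of the 133 other genes higher in si-A2, 45.9% held CCAAT, 11.3% a CHR and 7.52% an E2F site. The lists do not hold every cell cycle gene, and called genes outside them include E2F2, SKA1 and KIF15. In the windows of the 46 lower genes the shares were 32.6%, 15.2% and 0.0%. These are matches of letters, not measured binding.

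The called genes also included abundant transcripts of other functions whose si-A2 level was near si-SCRL. HSPA1B, an inducible heat shock chaperone gene whose close copy HSPA1A may share its probe, had the smallest p of all genes. It read 7.64, 7.69, 7.41 and 7.53 in si-A1, 9.94, 9.99 and 9.94 in si-A2, and 9.75 to 10.35 in si-SCRL. Every si-A2 array lay within the si-SCRL range and the fitted level was 5.38-fold that of si-A1 (2.43 ± 0.16 SE; adjusted p = 0.00098). It was the only heat shock or oxidative stress gene called, of 9 tested, and the median of the 18 above the threshold was 0.21. The median level of that list was 8.99 to 9.28 on the si-A1 arrays, 9.58 to 9.81 on the si-A2 arrays and 9.69 to 10.12 in si-SCRL. Of the 7 tested genes of polyamine metabolism, 2 were called. Spermine synthase (SMS, chrX:21940709-21994837) read 9.30, 9.35, 9.32 and 9.62 in si-A1 against 10.76, 10.74 and 11.18 in si-A2, where si-SCRL ranged from 10.84 to 11.42 (1.5 ± 0.20 SE; adjusted p = 0.0053). Ornithine decarboxylase antizyme OAZ1, which lowers polyamine synthesis, differed by 1.07 ± 0.16 (SE; adjusted p = 0.0072). The list median over 12 genes was 0.01, with 6 values above 0 and 6 below. The median level of the list was 9.33 to 9.59 on the si-A1 arrays, 9.79 to 10.28 on the si-A2 arrays and 9.61 to 10.11 in si-SCRL.

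In the respiratory chain list, 6 of 30 genes were tested and 2 were called. The ATP synthase subunit gene ATP5F1B read 10.94, 11.07, 11.08 and 11.34 in si-A1, 12.44, 12.57 and 12.88 in si-A2 and 12.45 to 12.84 in si-SCRL, a difference of 1.49 ± 0.16 (SE; adjusted p = 0.0024). The complex II subunit gene SDHB differed by 1.20 ± 0.19 (SE; adjusted p = 0.0087). The median of the 29 genes above the threshold was 0.09, with 23 above 0, beside 16557 of all 37444 genes. At an unadjusted limma p below 0.05, 5 of the 6 tested were higher and 0 lower. The median level of the list was 9.35 to 9.51 on the si-A1 arrays, 9.60 to 9.77 on the si-A2 arrays and 9.66 to 9.87 in si-SCRL. By this level si-A1 and si-A2 did not overlap. RPL7 was the only ribosomal protein gene of 34 that passed the filter on variation, and it was called at 1.5 ± 0.18 (SE), beside a list median of 0.06. Of the chaperones and sensors of the endoplasmic reticulum, calnexin (CANX, 1.31 ± 0.19 SE) was called among 9 tested, with a list median of -0.04. These genes were called as 1 or 2 members of lists whose medians lay between -0.04 and 0.09.

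PCAT1, a long non-coding RNA known from prostate cancer, stood apart from both other groups. Its values were 5.21, 5.42, 5.24 and 5.45 in si-A1, 8.45, 7.55 and 8.06 in si-A2, and 5.06 to 6.01 in si-SCRL. All si-A2 arrays were above all others, with a difference of 2.77 ± 0.23 (SE, 6.80-fold; adjusted p = 0.0016). FAM107A, an actin-associated stress gene, had no si-A1 spot well above background and was at least 4.44-fold higher in si-A2 by one probe. Its other probe gave -0.45, so the gene has no settled direction. GRM5P1, a pseudogene of a glutamate receptor, differed by 2.65 ± 0.36 (SE), and its si-A2 values of 5.30, 5.92 and 6.10 lay within the si-SCRL range of 5.08 to 6.91, with 2 of 4 si-A1 spots well above background. TMSB15A, a thymosin gene, differed by 2.39 ± 0.26 (SE), with si-A2 values of 5.76, 4.30 and 5.11 below si-SCRL. In si-A1, 1 of its 4 spots was well above background, so the size of the difference is uncertain.

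Of 24 androgen-regulated genes, 15 were tested and 3 were called higher in si-A2, and the median of the 23 above the threshold was 0.11. ACSL3, a fatty acid activating enzyme, read 5.33, 5.55, 5.86 and 6.19 in si-A1 and 6.83, 7.97 and 7.80 in si-A2 (1.67 ± 0.20 SE; adjusted p = 0.0036). FKBP5, a co-chaperone gene, differed by 1.68 ± 0.23 (SE; adjusted p = 0.0057) and the cold-sensing channel TRPM8 by 2.21 ± 0.33 (SE; adjusted p = 0.0075). A second FKBP5 probe gave 0.35, and 2 of 4 TRPM8 spots were well above background in si-A1. In ACSL3 and FKBP5, si-A2 replicate 1 was the lowest si-A2 array and still above every si-A1 array. The kallikrein KLK2 was at 0.91 (adjusted p = 0.018), and at -0.16 by its second probe, and KLK3, which encodes prostate-specific antigen, at 0.42 (adjusted p = 0.367), neither called.

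**Figure D3:**
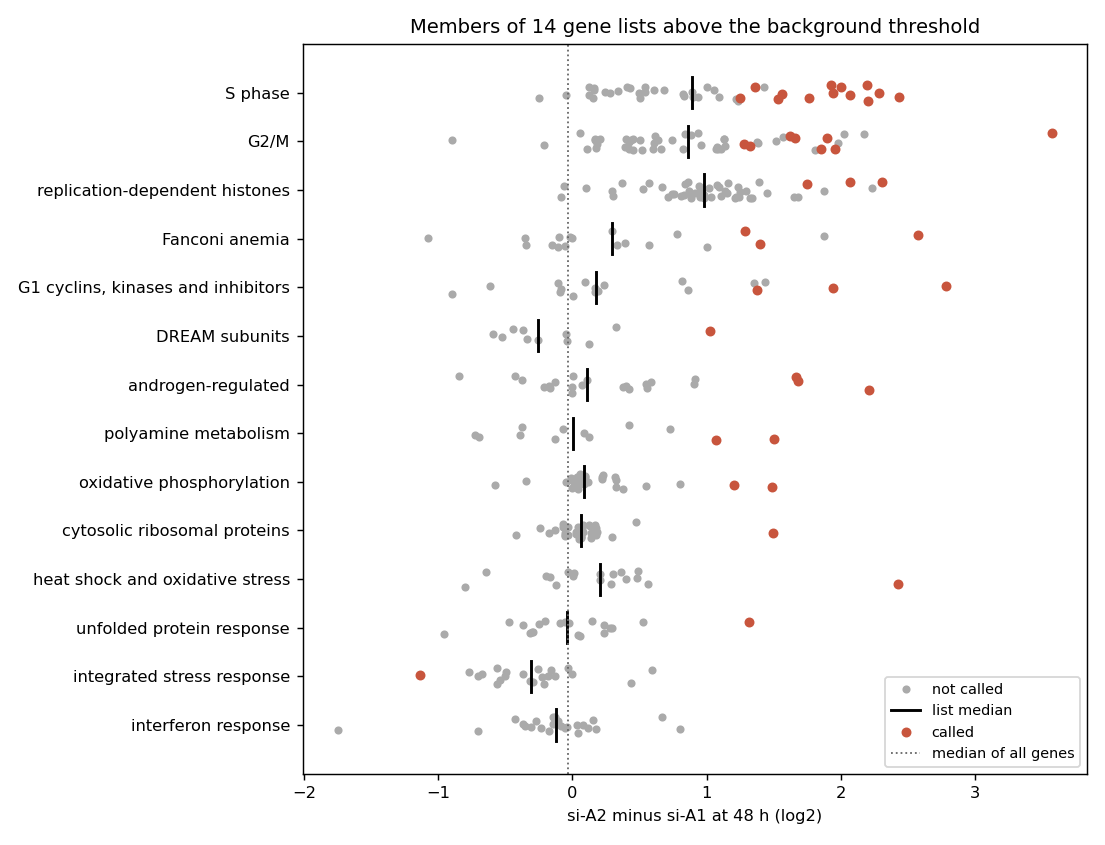
Difference si-A2 minus si-A1 at 48 h (log2, horizontal axis) of every member above the background threshold in 14 gene lists, in red where called, with the list median as a bar and the median of all genes as a dotted line. The S phase, G2/M and histone medians lie at 0.89, 0.86 and 0.98. In the polyamine, respiratory chain, ribosomal and heat shock lists the called genes lie above list medians of 0.01 to 0.21. The median level per array still separated si-A1 from si-A2 in the polyamine, respiratory chain and heat shock lists.

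Of the 74 genes lower in si-A2, 26 were also called higher in si-A1 than in si-SCRL, and 8 were called lower in si-A2 than in si-SCRL. NPC2, the lysosomal cholesterol carrier (chr14:74479935-74493512), read 9.86, 10.03, 10.17 and 10.23 in si-A1, 8.14, 8.02 and 8.33 in si-A2 and 9.97 to 10.30 in si-SCRL. ERG28, a scaffold of sterol synthesis enzymes (chr14:75649791-75660876), read 9.12, 9.06, 9.27 and 9.37, then 7.23, 7.41 and 7.29, with si-SCRL at 8.91 to 9.94. In both genes si-A1 matched the si-SCRL range and si-A2 was below all other arrays. The differences were -1.94 ± 0.15 and -1.96 ± 0.20 (SE), with adjusted p of 0.0016 and 0.0024. None of the 7 tested cholesterol synthesis genes was called by the limma fit (3 at an unadjusted p below 0.05, all higher), and the median of the 21 above the threshold was 0.09. The median level of that list was 7.03 to 7.40 on the si-A1 arrays, 7.63 to 7.80 on the si-A2 arrays and 7.67 to 7.98 in si-SCRL. By this level si-A1 and si-A2 did not overlap.

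Other genes lower in si-A2 had si-A1 means above si-SCRL, and some of them also had si-A2 means below it. ACKR3, a scavenging chemokine receptor, read 6.94, 6.87, 7.05 and 6.88 in si-A1 and 5.34, 4.21 and 3.24 in si-A2, with si-SCRL at 5.02 to 5.51. The si-A1 arrays were above all others, while the si-A2 arrays spread over more than 2 log2 units (-2.62 ± 0.39 SE; adjusted p = 0.0072). The growth factor gene PTN read 6.26, 5.62, 6.12 and 6.21 in si-A1 and 3.22, 3.98 and 4.29 in si-A2, where si-SCRL ranged from 3.32 to 4.29 (-2.28 ± 0.29 SE; adjusted p = 0.0042). LRRN1, a leucine-rich repeat membrane protein gene, differed by -2.05 ± 0.32 (SE), and both siRNA groups were above its si-SCRL mean of 4.14. The adaptor gene GRB10 differed by -1.03 ± 0.14 (SE), with si-A2 at 8.87 and si-SCRL at 8.81. The laminin gene LAMB1 differed by -1.88 ± 0.22 (SE), and its si-SCRL arrays, at 3.99 to 4.55, lay between si-A1 and si-A2. In si-A2, 1 of 3 spots was well above background for LAMB1 and 2 of 3 for ACKR3 and PTN, so the sizes of these differences are uncertain. For 4 genes no si-A2 spot was well above background. There si-A1 was higher by at least 3.77-fold for the stress gene NIBAN1, 2.08-fold for the chemokine CCL20 and 1.37-fold for the elongin gene ELOA2. For FGF13, a fibroblast growth factor homologue, the bound was 1.23-fold. In all 4 the si-SCRL mean lay between those of si-A1 and si-A2. Against si-SCRL, NIBAN1 was at 0.82 in si-A1 and -1.06 in si-A2, and CCL20 at 0.94 and -1.70. These values were 1.39 and -1.03 for ELOA2 and 1.26 and -1.15 for FGF13.

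Among 22 genes of the integrated stress response, 9 were tested and the transcription factor ATF5 was called lower in si-A2. It read 7.05, 7.18, 7.27 and 6.94 in si-A1, 6.05, 5.78 and 6.05 in si-A2 and 6.87 to 7.33 in si-SCRL (-1.14 ± 0.17 SE; adjusted p = 0.0072). The median of the 22 genes was -0.31, and 20 of them had a value below 0. No tested member of the lists for interferon response (14 tested, list median -0.12), hypoxia and glycolysis (14, 0.22), neuroendocrine markers (6, 0.11), the BCL2 family (3, -0.08), fatty acid synthesis (5, 0.06) and RNA interference (2, 0.03) was called by limma. At an unadjusted limma p below 0.05 they held 3, 5, 0, 2, 3 and 0 genes in either direction. In the limma fit over all 37444 genes above the threshold, which called 0.937% higher and 0.441% lower in si-A2, 1 interferon gene and 1 fatty acid gene were called higher.

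CDKN1A, which encodes the cyclin-dependent kinase inhibitor p21, read 10.81, 11.12, 11.15 and 11.61 in si-A1, 10.33, 9.99 and 10.59 in si-A2 and 8.93 to 9.21 in si-SCRL. Its 3 groups did not overlap, with si-A2 in the middle, and the difference of -0.89 ± 0.22 (SE) had an adjusted p of 0.043. The mitochondrial reductase gene FDXR, named for its change with time, was at -0.23 (adjusted p = 0.514). TMEM87B (0.48) and the syndecan SDC4 (-0.52), also followed earlier in these data, were not called.

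The same contrast at 24 h, read with the same probes, divided the genes called at 48 h. Time and array version changed together and cannot be told apart. At 24 h, 17 of 15168 genes were called (0.112%), and 11 genes were called at both times in the same direction. Of the 193 genes higher in si-A2 at 48 h whose probe also stood for the gene at 24 h, 117 (60.6%) had the same direction at 24 h with an unadjusted limma p below 0.05 and 5 (2.59%) the opposite. Of 63 lower genes, 39 (61.9%) had the same direction and 0 the opposite. The shares over all 11262 genes tested at 48 h and read so at 24 h were 11.3% and 3.36%.

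The 27 called genes of the lists for S phase, G2/M, histones and Fanconi anemia differed in this respect from the other 184 higher genes, a split made after these values had been seen and given without a test. Of the 25 read so at 24 h, 1 had the same direction (4.0%) and 2 the opposite (8.0%), with a median of -0.08 at 24 h and 1.89 at 48 h. Of the other 168, 116 had the same direction (69.0%), with a median of 0.88 at 24 h. The lists do not hold every cell cycle gene, and the other genes include ORC1, MCM3, SKA1, KIF15 and CHEK1. Their share is thus not that of genes without a part in replication or mitosis. The si-A2 mean lay between si-A1 and si-SCRL for 27 of the 27, and for 105 of the 184. It did so for 7341 of all 17334 genes tested, whereas genes chosen as higher in si-A2 cannot lie below both. Of the 2 genes not among the 25, RFC2 had no reading of its probe at 24 h. NCAPD2, for which another probe stood at 24 h, was at 0.81 ± 0.15 (SE) there by its 48 h probe, the same direction as at 48 h. CLSPN was at -1.04 at 24 h, and E2F2, outside the 4 lists, at -1.30. HSPA1B was at 2.22 at 24 h, ATP5F1B at 1.43, SMS at 1.31, NPC2 at -2.66 and ERG28 at -1.83, each close to or beyond its 48 h value.

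**Figure D4:**
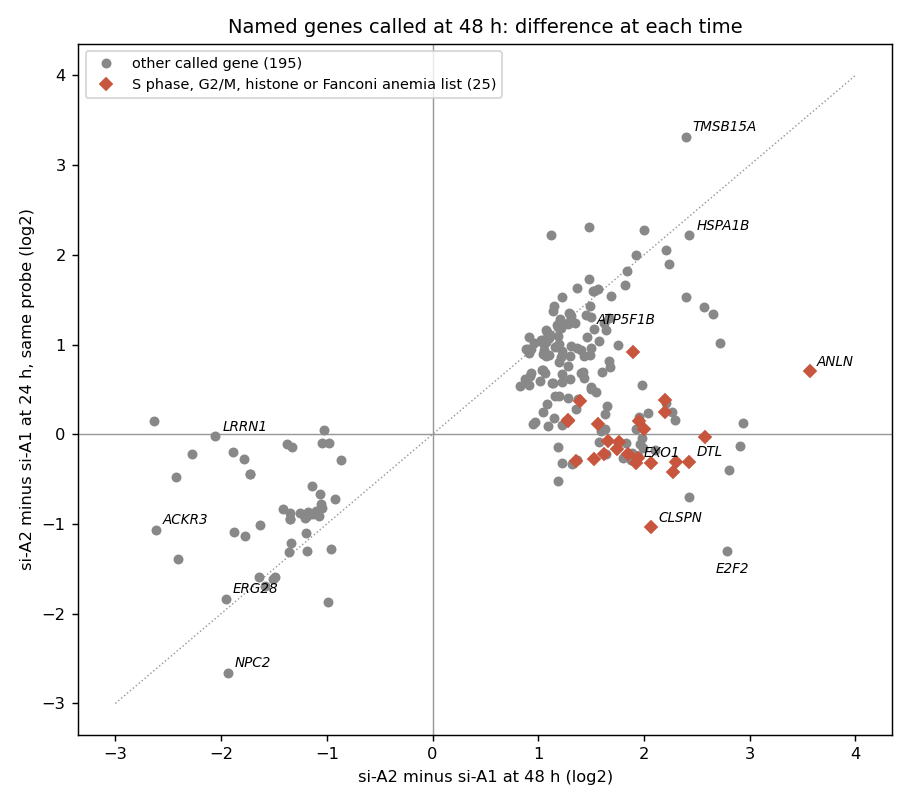
Difference si-A2 minus si-A1 at 48 h (horizontal axis, log2) against 24 h (vertical axis, log2, same probe) for RefSeq-named genes called at 48 h, with red diamonds for 25 genes of the lists for S phase, G2/M, histones and crosslink repair, and a dotted line of equal values. The diamonds lie mostly near 0 at 24 h, with a median of -0.08, while HSPA1B, TMSB15A, NPC2 and ERG28 lie near or beyond the line.

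A limma interaction tested whether the contrast itself changed between the times, over 29890 genes above the threshold at both. It called 51 (0.171%), of which 47 were more positive at 48 h and 4 more negative. The changes from 24 h to 48 h were 2.17 ± 0.18 (SE; adjusted p = 1.5e-05) for EXO1, 1.54 ± 0.16 (SE) for POLQ, 1.65 ± 0.18 (SE) for MCM5, 3.93 ± 0.43 (SE) for E2F2 and 3.05 ± 0.34 (SE) for ZNF367. In this fit of both times together CDKN1A changed the other way, from 1.25 at 24 h, where it was higher in si-A2, to -0.84 at 48 h (change -2.10 ± 0.23 SE; adjusted p = 0.00024). FDXR went from 1.05 to -0.23 in the same fit (change -1.29 ± 0.19 SE; adjusted p = 0.0024). For HSPA1B (0.15 ± 0.25 SE; adjusted p = 0.962), SMS (0.02 ± 0.19 SE; adjusted p = 0.993) and ERG28 (-0.06 ± 0.28 SE; adjusted p = 0.984) the change did not pass the test. LRRN1 (-2.04 ± 0.36 SE), PTN (-1.92 ± 0.35 SE) and GRB10 (-1.07 ± 0.19 SE) had adjusted p between 0.011 and 0.017. TAPIR-2 gave 0.70 ± 0.45 (SE; adjusted p = 0.776).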

How the data were processed

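Total RNA of LNCaP cells was labelled with Cy3 and hybridised to one-colour Agilent arrays, 4 replicates for each of 3 siRNAs at 24 h and 48 h, 12 arrays per time on 2 slides. The deposited intensities were background-corrected processed signals from Feature Extraction 11.5.1.1, and the authors' own table held quantile-normalized log2 values, used as an alternative. The study's methods named limma 3.34.8 in R 3.4.3, batch effects as additive terms and the removal of 1 dim si-A2 array. The additive term and the removal were kept, with the slide taken as the batch here, and a later limma was used; the realignment of probes to hg38 was not repeated.

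Here the processed intensities of 11 arrays of 48 h were quantile-normalized and log2-transformed. A probe was kept if at least 3 arrays exceeded a threshold, the mean plus 3 SD of the 308 negative control spots, and if its interquartile range reached 0.5, and the brightest probe stood for its gene. RefSeq tables named 31104 of 58201 probes (53.4%), with gene positions on GRCh38.p14. Differences were tested with limma 3.58.1 (R 4.3.3, two-sided, Benjamini-Hochberg over 17334 genes). The precision is limited by the number of arrays. On simulated data with 17334 genes, 7 of 100 genes changed by 1 and 41 of 100 changed by 2 on the log2 scale were recovered, with 1 false call. Only these genes were changed there, with independent noise, whereas 3765 genes of the data had an unadjusted limma p below 0.05. The adjusted p depends on the share of changed genes, so recovery and false calls in the data can differ. A fold given for a probe that was well above background on no array of 1 group is a bound, against the higher of the lowest signal well above background and its own. Probes well above background on only some arrays of a group kept their fitted difference. Deviations from the group means of same-numbered si-A1 and si-A2 arrays correlated at 0.35, 0.21 and 0.25 (replicates 1, 3 and 4). Same-numbered arrays also share a slide, whose shift was not removed, so these correlations alone cannot show pairing. Each si-A2 array correlated best with the si-A1 array of its own number, and the numbers were taken as pairs. The labels do not say what a number marks.

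Genes were named by rule: TAPIR probes, the 10 largest non-overlapping called differences of each direction, the called members of each list and up to 3 members with the smallest p, genes followed in earlier work on these data, and up to 5 of each direction in the interaction with time. The comparison, its members and the lists were chosen with earlier results of these data known. Alternatives covered background correction, scaling, the dim array, slide and pairing terms, filters and leaving out each array. Promoter motifs were searched in the 250 bases before the first listed RefSeq start of a gene. siRNA and probe sequences were not used here. Some items named by these rules are not reported here.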

Additional observations from a re-analysis of the deposited data

Results flagged for a closer look

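In groups of 4 arrays, 1 array lay far from the other 3 in 9 of 156 groups tested, and chance flags about 1 in 20 groups. These were CCL20 at 4.89 and SMS at 9.62 in si-A1 replicate 4, FANCI at 5.90 and POLQ at 4.76 in si-A1 replicate 2, and CCNB2 at 3.36 in si-A1 replicate 3. In si-SCRL they were FKBP5 at 7.69 in replicate 1 and OAZ1 at 11.80, BIRC5 at 10.07 and CDC25C at 5.77 in replicate 4. All values are normalized log2 intensities.

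For 20 of the genes named, the si-A2 minus si-A1 difference itself changed between 24 h and 48 h in the limma interaction, together with the array version. It was more positive at 48 h by 3.93 for E2F2, 2.16 for E2F1, 3.05 for ZNF367, 3.10 for KIF15, 2.31 for BRCA1 and 1.54 for POLQ on the log2 scale. Among S phase genes it was more positive by 2.17 for EXO1, 2.61 for DTL, 2.61 for CENPU, 1.65 for MCM5, 1.84 for MCM4, 1.84 for GINS2, 2.14 for CCNE2 and 3.19 for CLSPN. The mitotic genes TOP2A and NUF2 were more positive by 1.84 and 1.69, and the histone genes H2AC11 and H3C7 by 2.34 and 1.80. The change was -2.10 for CDKN1A and -1.29 for FDXR.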

How the results depend on the processing

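The count of 285 called genes depended on the processing. It was 579 with normexp background correction, 762 without background correction, 728 with the filter on spots well above background, 516 without the interquartile filter, and 1195 at an adjusted p below 0.05 with no limit on the difference. It was 49 without the slide term and 29 with the replicate block, which kept 18 and lost 43 of the 61 called genes named above. It was 0 with si-A2 replicate 2 included and 0 with si-A1 and si-A2 alone in the fit, where limma gave 1644 and 3365 genes at an unadjusted p below 0.05. Leaving out 1 array gave 0 (without si-A2 replicate 4) to 223 (without si-SCRL replicate 3). With array weights, 75th percentile scaling, the authors' log2 values, a random slide block and the median over probes it was 204 to 283. Between 68.0 and 82.8% of the calls were higher in si-A2 at the calling threshold in these settings with all 11 or 12 arrays, where any were made. Of these 61 genes, 59 had the same sign in 24 settings, and each kept its call in 5 (CCL20, TTK, TFDP1) to 22 (NPC2) of them, HSPA1B in 21 and EXO1, DTL, ZNF367, PCAT1 and ERG28 in 20. FAM107A turned to -0.18 with normexp, -0.27 without background correction and -0.45 without the interquartile filter, through its other probe. With si-A2 replicate 2 included, TFDP1 was at -0.98, KLK3 at -0.24 and KIF23 at -0.995, and CCNB1 was at 0.17 with the median over probes. CCNE1 was at -0.012 with normexp, -0.0157 without background correction, -0.0212 with array weights, and -0.0587 (without si-A2 replicate 4) to 0.0615 (without si-A2 replicate 3) with 1 array left out. TAPIR-2 was at -0.055 with si-A2 replicate 2 included, with and without weights, -0.14 without the slide term, -0.027 with a random slide block, and -0.101 (without si-A2 replicate 4) to 0.288 (without si-A2 replicate 3) with 1 array left out. The interaction with time called 51 genes, 2 with si-A2 replicate 2 of 48 h included, 80 with 75th percentile scaling, 156 at an adjusted p below 0.05, 58 with the replicate block, and 17 (without si-A2 replicate 1 of 48 h) to 97 (without si-A2 replicate 3 of 48 h) with 1 array left out. The cause of these changes was not tested. The S phase, G2/M and histone medians were above 0 in all 26 settings, at 0.32 to 1.27, 0.38 to 1.49 and 0.18 to 1.30.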
